A study of Mus musculus with 9 samples.

Results

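Caspases are proteases that cut their substrates after aspartate. They are made as inactive precursors, and the family is divided by what its members start. The inflammatory caspases are switched on at inflammasomes or by bacterial lipopolysaccharide inside the cell, mature interleukin-1 family cytokines and open the membrane pore of pyroptosis. Initiator caspases of apoptosis sense death receptors or damaged mitochondria, and effector caspases carry out the cleavage that follows. In T cells, caspase-8 is known for a further task, since it is needed for expansion after activation and holds back necroptosis.

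The genes described here are 6 caspase genes of 14004 genes in the table: the inflammatory Casp1 and Casp4, the initiators Casp2, Casp8 and Casp9, and the effector Casp6. The list was chosen by name with the levels of these genes in the 9 libraries, tissue by tissue, already measured and known. Their levels and differences are therefore given as a description. Calls of these genes in the fits over all genes are listed below, but they are no test of them. Expression was measured by RNA-seq of iNKT1 cells, the T-bet-expressing subset of invariant natural killer T cells, which recognise lipids on CD1d. There were 3 libraries each from the thymus, the liver and the spleen. All 9 came from untreated C57BL/6 mice labelled as control, with the genotype Tbx21CreTg;Rosa26-LSL-YFP+/+. In such mice the Tbx21 promoter drives Cre, which marks cells with YFP. The labels give neither the age of the mice nor the gate used for sorting, nor do they say whether animals were pooled.

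All 11 iNKT1 markers examined, Tbx21 and Zbtb16 among them, had reads in every library. The deposited values are normalised read counts, and the reads behind them numbered 18506598 to 27706136 per thymus library, 3877694 to 31579294 per liver library and 32483307 to 39568081 per spleen library. Liver replicate 3 was the shallow one, and 1 read is worth 6.04 there against 0.6 to 1.25 in the other libraries. Fewer genes had a read in thymus replicates 1 and 2 (10476 and 11180) than in the other 7 libraries (11781 to 13038). In each tissue the library numbered 2 carried Xist (84543 to 107736) and at most 21 reads of 4 Y-linked genes. In the remaining 6 libraries there were 1458 or more, and thymus replicate 3 had both 7016 Y-linked reads and Xist at 16531. The labels name no batch, and replicate numbers are theirs.

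The stretches around the transcription starts are shown for 4 members because these genes differ most in how their levels behaved across tissues: Casp1 without a read in the thymus, Casp4 its neighbour, Casp8 nearly level, and Casp9 highest on average in the spleen. Each runs from 250 bases before to 50 bases after a RefSeq start (GRCm38.p6, plus strand, 5′ to 3′). Capitals mark motif matches on either strand.

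Casp1, chr9:5298267-5298566: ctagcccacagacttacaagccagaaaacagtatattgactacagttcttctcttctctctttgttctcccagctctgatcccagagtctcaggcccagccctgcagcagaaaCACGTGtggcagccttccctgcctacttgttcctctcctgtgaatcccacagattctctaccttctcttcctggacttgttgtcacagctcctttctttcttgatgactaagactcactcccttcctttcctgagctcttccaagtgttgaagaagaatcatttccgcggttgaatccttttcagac
Casp4, chr9:5308599-5308898: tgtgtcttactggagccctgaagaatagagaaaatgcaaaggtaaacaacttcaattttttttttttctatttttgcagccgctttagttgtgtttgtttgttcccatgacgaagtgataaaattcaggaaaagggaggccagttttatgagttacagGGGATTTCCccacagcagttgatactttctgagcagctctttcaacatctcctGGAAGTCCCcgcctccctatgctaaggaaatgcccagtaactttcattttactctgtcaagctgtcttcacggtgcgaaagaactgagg
Casp8, chr1:58802252-58802551: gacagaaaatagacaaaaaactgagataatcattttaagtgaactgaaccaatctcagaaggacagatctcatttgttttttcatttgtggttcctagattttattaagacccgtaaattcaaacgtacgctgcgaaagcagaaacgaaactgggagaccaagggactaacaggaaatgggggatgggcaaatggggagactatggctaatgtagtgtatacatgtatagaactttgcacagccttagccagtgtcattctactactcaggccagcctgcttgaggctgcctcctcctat
Casp9, chr4:141793362-141793661: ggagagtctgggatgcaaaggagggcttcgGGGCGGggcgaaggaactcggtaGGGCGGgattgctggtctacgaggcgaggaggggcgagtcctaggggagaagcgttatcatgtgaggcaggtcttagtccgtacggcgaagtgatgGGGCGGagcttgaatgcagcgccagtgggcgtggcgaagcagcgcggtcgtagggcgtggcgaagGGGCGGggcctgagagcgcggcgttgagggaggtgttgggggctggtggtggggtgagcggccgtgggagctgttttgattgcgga

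The letters searched were the interferon-stimulated response element (GAAA, any 2 bases, GAAA), TTCNNNGAA (STAT), GGGANTTCC (kappaB), TGANTCA (AP-1), CACGTG (E-box), GGTGTGA (T-box), CCGGAAG (ETS) and GGGCGG (GC box). The Casp4 window held 2 kappaB matches, at -92 and -39 relative to the start, and 1.68% of 32851 RefSeq promoter windows of the same length hold at least 1. A second Casp4 start, in a window at chr9:5308610-5308909, has the same matches. The Casp1 window held 1 E-box at -137, a motif present in 7.15% of windows. The Casp9 window held 4 GC boxes, the Casp6 window 3 and the Casp2 window 2, against 35.7% of all windows with at least 1. The Casp8 window held none of the 8 motifs. Guanine and cytosine made up 66%, 62% and 63.7% of the Casp9, Casp6 and Casp2 windows, and 48%, 42% and 42% of those of Casp1, Casp4 and Casp8, with a median of 52.7% over all windows. A match describes letters only, and the RefSeq start of Casp8 lies inside the GENCODE gene rather than at its first base.

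Casp1 encodes caspase-1, the protease of the canonical inflammasome. Its gene (ENSMUSG00000025888) lies at chr9:5298517-5307265 on the plus strand of GRCm38. No read of Casp1 was recovered in any of the 3 thymus libraries, a count that allows up to 3.36, 3.47 and 3.76 normalised reads. In the liver it was at 684, 501 and 343 in replicates 1, 2 and 3, from 786, 584 and 57 reads. In the spleen it was at 226, 14.4 and 85.7, from 303, 21 and 143 reads. Every liver library lay above every spleen library, and all 6 lay above the thymus. The means were 509 ± 171 in the liver and 109 ± 108 in the spleen (SD, n = 3 each). Against a floor of 3 reads per library, Casp1 was at least 144-fold higher in the liver and at least 30.8-fold higher in the spleen than in the thymus. The liver mean was 4.69-fold the spleen mean. Without spleen replicate 1 the spleen mean was 50.03, and in the libraries numbered 1 and 3 alone the spleen mean was 156. Of 13309 genes tested, 55 (0.413%) had no read in the thymus and at least 1 read in all 6 liver and spleen libraries, and 3.88% had no read in any thymus library.

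Casp4 encodes the mouse caspase-11, which binds lipopolysaccharide in the cytosol and starts the non-canonical pathway. The gene (ENSMUSG00000033538, chr9:5308828-5336783, plus strand) begins 1562 bp after the end of Casp1. It had no read in thymus replicates 1 and 3 and stood at 176 in replicate 2, from 152 reads. The liver libraries held 367, 70.3 and 212, and the spleen libraries 81.2, 28.1 and 652. The groups overlapped in all 3 comparisons, and 1 library carried most of the mean in each tissue. The means were 58.6 ± 101 in the thymus, 216 ± 148 in the liver and 254 ± 346 in the spleen (SD, n = 3 each). Without spleen replicate 3 the spleen mean fell to 54.7, and without liver replicate 1 the liver mean was 141. No Casp4 read would be left in the thymus without its replicate 2. Casp12, the next gene of this cluster, was not analysed here.

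The neighbours Casp1 and Casp4 were therefore unlike in the thymus: the library with 152 Casp4 reads, thymus replicate 2, had no Casp1 read. They were also unlike in the spleen, where Casp4 was highest in replicate 3 and Casp1 in replicate 1. Across the 9 libraries the Pearson correlation of their log2 values was 0.69.

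**Figure D1:**
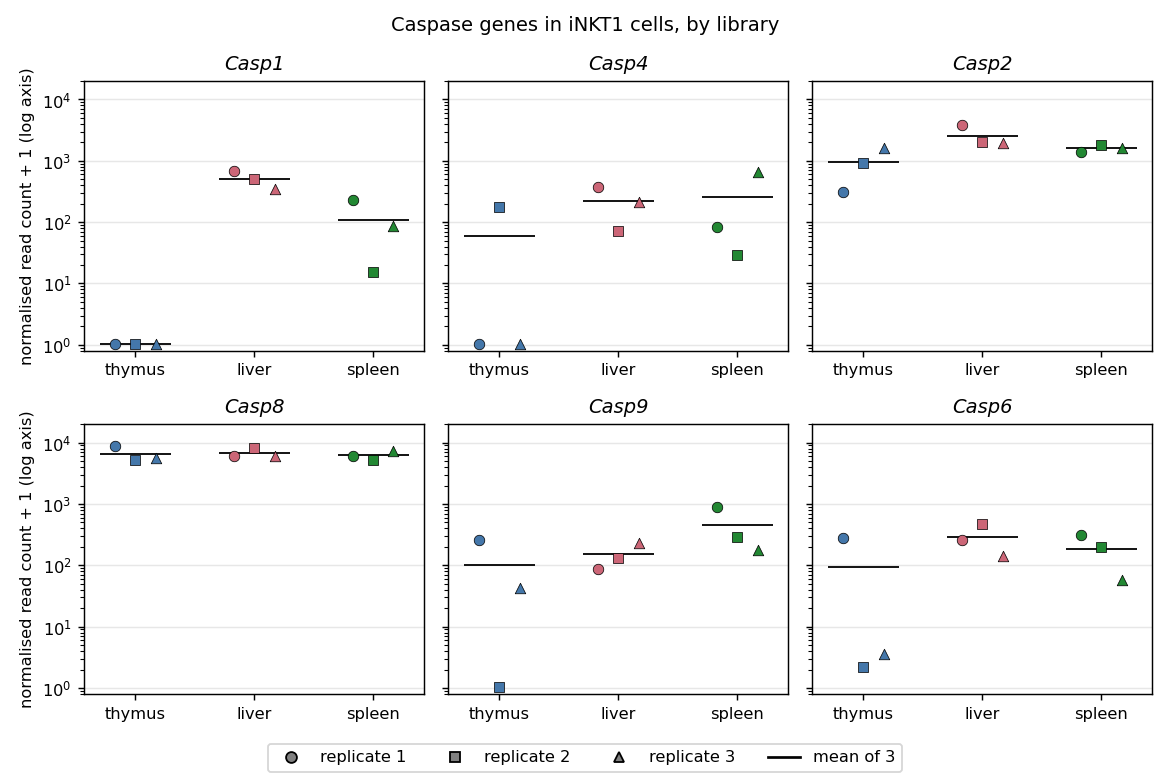
Normalised read counts plus 1 of the 6 caspase genes on a log axis, 1 panel per gene; points are the 9 libraries with a shape per replicate number, and lines are means of 3. Casp1 lies at the bottom of the axis in all 3 thymus libraries and between 343 and 684 in the liver, while Casp8 stays between 5164 and 8685 in every library.

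Casp8 encodes the initiator that death receptors recruit through the adaptor FADD. The gene (ENSMUSG00000026029, chr1:58795374-58847503, plus strand) was at 8685, 5164 and 5643 in the thymus. It was at 5985, 8256 and 6081 in the liver, and at 5957, 5233 and 7393 in the spleen. No tissue stood apart, and both the highest and the lowest library were from the thymus. The means were 6497 ± 1909, 6774 ± 1284 and 6194 ± 1099 in thymus, liver and spleen (SD, n = 3 each). The largest of its 3 differences between tissues was 0.13 on the log2(value + 1) scale (liver against spleen, SE 0.29), which is smaller than its standard error. The sign of its liver against thymus difference turned in 3 of 22 alternative analyses and that of spleen against thymus in 5 of 22, so no direction is given. Its highest library was 1.68-fold its lowest, the narrowest range of the 6 genes.

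Casp2 encodes an initiator known from the PIDDosome, a complex that responds to extra centrosomes and to DNA damage. The gene (ENSMUSG00000029863, chr6:42264985-42282508, plus strand) was at 313, 915 and 1597 in the thymus. It was at 3790, 2007 and 1956 in the liver, and at 1369, 1814 and 1641 in the spleen. Every liver library lay above every thymus and every spleen library, whereas spleen and thymus overlapped through thymus replicate 3. The means were 941 ± 642, 2584 ± 1044 and 1608 ± 225 in thymus, liver and spleen (SD, n = 3 each). The liver mean was 2.74-fold the thymus mean and 1.61-fold the spleen mean. Without thymus replicate 3 the thymus mean was 614. A small nucleolar RNA gene on the same strand, Gm25108, overlaps Casp2, and how reads in that stretch were assigned is not given in the sources used here.

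Casp9 encodes the initiator that the apoptosome activates once cytochrome c has left mitochondria. The gene (ENSMUSG00000028914, chr4:141793612-141815976, plus strand) was at 257 in thymus replicate 1, had no read in replicate 2 and stood at 41.4 in replicate 3. It was at 86.1, 131 and 231 in the liver, and at 884, 285 and 174 in the spleen. All pairs of tissues overlapped, and spleen replicate 1 was the highest library. The means were 99.4 ± 138, 149 ± 73.9 and 448 ± 382 in thymus, liver and spleen (SD, n = 3 each). Without spleen replicate 1 the spleen mean was 229, and without thymus replicate 1 the thymus mean was 20.7. The stretch of Casp9 from chr4:141814962 to its end at 141815976 overlaps Cela2a and Ctrc on the other strand. Neither of these was analysed here, and the strand setting of the counting is not given in the sources used here.

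Casp6 encodes an effector caspase that cuts nuclear lamins. The gene (ENSMUSG00000027997, chr3:129901425-129914103, plus strand) was at 274 in thymus replicate 1, with 244 reads, and had only 1 read and 2 reads in replicates 2 and 3. It was at 259, 479 and 140 in the liver, and at 306, 195 and 57.5 in the spleen. Thymus replicate 1 lay within the range of the other tissues and the remaining thymus libraries lay near 0. The means were 92.4 ± 157, 293 ± 172 and 186 ± 125 in thymus, liver and spleen (SD, n = 3 each). Without thymus replicate 1 the thymus mean was 1.87. Casp6 and Casp9 shared this feature of the thymus, each with its highest thymus value in replicate 1 and its lowest in replicate 2, and across the 9 libraries their log2 values correlated at 0.81, the highest of the 15 pairs of members.

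Thus 3 of the 6 genes, Casp1, Casp4 and Casp9, had no read in at least 1 thymus library and at least 1 read in every liver and spleen library. Over all genes tested, 10.9% had no read in at least 1 thymus library and a read in all 6 others. The thymus libraries without reads were not the same ones: all 3 for Casp1, replicates 1 and 3 for Casp4, and replicate 2 for Casp9. In bulk RNA, fewer cells with a transcript and less RNA per cell cannot be told apart.

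On the log2(value + 1) scale, which compresses low values, the liver against thymus differences were 8.90 for Casp1 (SE 1.68), 4.95 for Casp4 (SE 2.1), 4.34 for Casp6 (SE 1.81), 2.63 for Casp9 (SE 1.77), 1.67 for Casp2 (SE 0.57) and 0.08 for Casp8 (SE 0.29). For spleen against thymus they were 6.02, 4.34, 3.56, 3.98, 1.05 and -0.05 in the same order, with the same standard errors. The thymus libraries serve in both comparisons. For liver against spleen they were 2.87, 0.61, 0.77, -1.35, 0.62 and 0.13. Those of Casp4, Casp6, Casp8 and Casp9 between liver and spleen were smaller than their standard errors, and that of Casp4 turned negative in 4 of 22 alternative analyses. The median difference over all genes tested was 0.29 for liver against thymus, 0.33 for spleen against thymus and -0.02 for liver against spleen. It was 0.43 and 0.48 in the thymus comparisons with library totals made equal, and -0.03 and 0.00 with edgeR on recovered reads. The signs of Casp1, Casp2, Casp6 and Casp9 in all 3 comparisons, and of Casp4 in the comparisons with thymus, were kept in all 22 alternatives.

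The fits over all genes also covered the 6 members. These were chosen with their values known, so the calls listed here are a description and no test. Of the 6 members, 1 passed an adjusted p under 0.05 in limma-trend for liver against thymus, which was Casp1. Over all genes tested 0.323% passed in that comparison, and 0.203% passed as higher in the liver. None of the members passed for spleen against thymus, where 0.398% of genes did and 0.188% as higher in the spleen, or for liver against spleen, where 0.015% did. At an unadjusted p under 0.05 the limma-trend counts of members were 4, 2 and 0, against 11.6%, 11.7% and 3.03% of all genes. Casp1 passed in 11 of the 22 alternatives for liver against thymus; it did not, among others, with a pseudocount of 10, with edgeR, with only the 6 samples compared, without the libraries numbered 2, or when any 1 liver or spleen library was left out. DESeq2 on recovered reads passed Casp1 for liver against thymus and for spleen against thymus, with 4.07% and 4.4% of all genes passing, and no member for liver against spleen, with 0.224% passing. With edgeR no member passed in any comparison, with 0.136%, 0.256% and 0.016% of genes passing. Values of the groups did not overlap, with the first tissue higher, for 2 members between liver and thymus (Casp1 and Casp2), for 1 between spleen and thymus (Casp1) and for 2 between liver and spleen (Casp1 and Casp2). The shares of all genes were 9.61%, 9.29% and 5.97%. The members were chosen with these values known, and nothing is read from their counts.

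**Figure D2:**
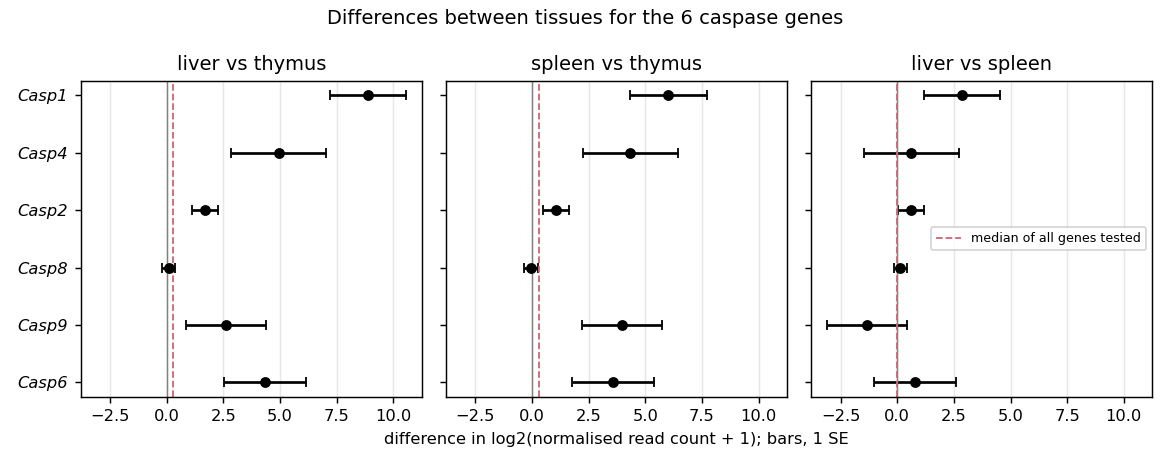
Differences between tissues in log2(normalised read count + 1) for the 6 caspase genes, 1 panel per comparison, with bars of 1 standard error from the limma fit and a dashed line at the median of all genes tested. In liver against thymus the points run from 0.08 for Casp8 to 8.90 for Casp1, and between liver and spleen only the bars of Casp1 and Casp2 stay clear of 0.

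Per kilobase of exon, which allows genes to be compared, Casp8 was the highest of the 6 genes in all 3 tissues, at 2246 ± 660, 2342 ± 444 and 2141 ± 380 normalised reads per kilobase in thymus, liver and spleen (SD, n = 3 each). Casp2 followed throughout, at 133 ± 91.0, 366 ± 148 and 228 ± 31.8. Casp1 changed place: it was the lowest in the thymus, next after Casp2 in the liver at 340 ± 114 and after Casp2 and Casp9 in the spleen at 72.6 ± 71.9. In the liver the ranges of Casp2 and Casp1 overlapped, and Casp1 lay above Casp4 (58.3 ± 40.0), Casp6 (52.4 ± 30.8) and Casp9 (28.7 ± 14.2), which overlapped each other in neighbouring ranks. In the spleen Casp9 (86.1 ± 73.6), Casp1, Casp4 (68.4 ± 93.3) and Casp6 (33.4 ± 22.3) could not be ordered beyond their spread. In the thymus Casp9, Casp6 and Casp4 were at 19.1 ± 26.5, 16.6 ± 28.1 and 15.8 ± 27.3, again with overlapping ranges, and the highest library of each lay above the lowest Casp2 library.

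**Figure D3:**
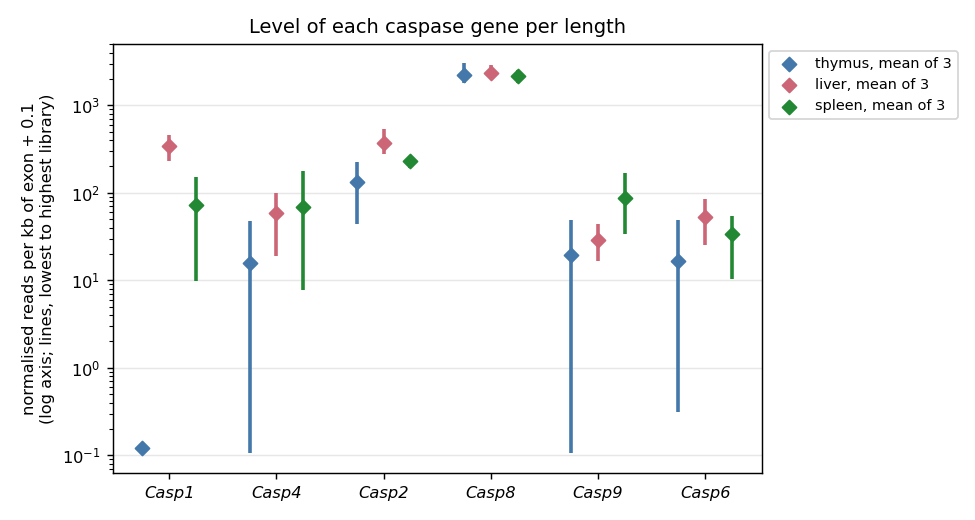
Level of each caspase gene in normalised reads per kilobase of exon plus 0.1, on a log axis; diamonds are means of 3 libraries per tissue and lines run from the lowest to the highest library. Casp8 stands above the other 5 genes in every tissue, at 2141 to 2342, and Casp1 runs from 340 in the liver to the bottom of the axis in the thymus.

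The balance of inflammatory to apoptotic members was taken per library as the summed values of Casp1 and Casp4 over those of Casp2, Casp6, Casp8 and Casp9. Its log2 was -3.27, -4.25 and -3.92 in the liver, a mean of -3.81 ± 0.50 (SD, n = 3). It was -4.79, -7.47 and -3.65 in the spleen, a mean of -5.30 ± 1.96 (SD, n = 3). In the thymus it was -5.11 in replicate 2 and at most -11.47 and -10.92 in replicates 1 and 3, which had no read of either inflammatory gene and were set to 3 reads, so no mean is given. All 9 values were far below 0, the liver libraries were the closest together, and on this scale the liver overlapped with the spleen but not with the thymus. As a share of the 6-gene sum, the inflammatory pair made up 9.41%, 4.99% and 6.19% in the liver, 3.48%, 0.562% and 7.38% in the spleen, and 2.81% in thymus replicate 2. Per kilobase the shares were 17.2%, 9.82% and 10.5% in the liver, 6.52%, 0.791% and 7.60% in the spleen and 2.42% in thymus replicate 2. Weighted this way, every liver library lay above every spleen library, and the mean log2 in the liver was -2.85, more than 1 SD above the value without length; the per-kilobase log2 was added after the data were seen. Casp8 alone was 77.5% to 91.2% of the sum in thymus libraries, 53.6% to 72.1% in liver libraries and 67.5% to 73.9% in spleen libraries.

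The genes whose log2 values followed each member most closely over the 9 libraries were looked up among 10714 genes with a mean of at least 50. These coefficients are the highest of many, share the same 9 libraries and carry no test. For Casp1 they were Tefm (r = 0.95), Phlda1 (0.95) and Mtss1 (0.95), with thymus means of 0.0309, 2.003 and 0.417 and liver means of 397, 309 and 193. For Casp4 they were Piga (0.98), Ube2c (0.96) and Tollip (0.94), and for Casp2 Rnmt (0.98), Gbe1 (0.98) and Nubp2 (0.98). For Casp6 they were Cxcr3 (0.96), a chemokine receptor of type 1 lymphocytes, Josd2 (0.96) and Sepsecs (0.95). For Casp9 they were Emc10 (0.97), Spcs2 (0.97) and Ifng (0.97), the interferon-gamma gene, which had 24.3 in thymus replicate 2, its lowest library and that of Casp9. For Casp8, whose range was narrow, they were Itga3 (0.93), Ppard (0.91) and Ercc6l2 (0.90).

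The pathways around these proteases were followed in 6 lists, of inflammasome sensors and adaptors, pyroptosis output, death receptors, the apoptosome and its mitochondrial inputs, inhibitors of apoptosis (IAP) and caspase substrates. Together they hold 62 genes, of which 51 were in the table and 50 passed the filter on low values. In limma-trend 0 of 50 passed an adjusted p under 0.05 in any of the 3 comparisons. At an unadjusted p under 0.05 there were 3 for liver against thymus, 5 for spleen against thymus and 0 for liver against spleen, with adjusted p from 0.212 to 0.412 in limma-trend. Over all genes 11.6%, 11.7% and 3.03% were under that unadjusted p, and 0.323%, 0.398% and 0.015% passed after adjustment. With 50 genes and shares this small, 0 adjusted calls cannot tell the lists from all genes, and nothing is read from these counts. edgeR passed 0 in each, beside 0.136%, 0.256% and 0.016% of all genes. DESeq2 passed 0, 2 and 0, beside 4.07%, 4.4% and 0.224% of all genes, the 2 being Nlrp1b (higher) and Naip2 (lower) in the spleen than in the thymus. The median differences of these 50 genes were 0.24, 0.15 and 0.04, beside 0.29, 0.33 and -0.02 over all genes.

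Of the inflammasome list 9 of 15 genes were tested, with a median of 0.11 for liver against thymus and -0.06 for spleen against thymus. Pycard, which encodes the adaptor ASC that brings caspase-1 to a sensor, had reads in all libraries, at 604, 392 and 386 in the thymus, 1022, 959 and 1006 in the liver and 999, 587 and 346 in the spleen. Liver and thymus did not overlap for it, but its difference of 1.14 (SE 0.63) did not pass. So the thymus libraries without Casp1 reads did hold reads of its adaptor. Aim2, a sensor of cytosolic DNA, was at 1578 to 1915 in thymus libraries, 1236 to 1871 in liver libraries and 2147 to 2725 in spleen libraries. Nek7, a partner of NLRP3, and Txnip overlapped between all tissues, at 2984 to 5299 and 3967 to 6316 over all libraries. Naip2, a receptor for bacterial secretion proteins, was at 1151, 2163 and 425 in the thymus, 86.1, 399 and 231 in the liver and 83.4, 268 and 13.1 in the spleen. Nlrp1b was at 35.9, 30.1 and 8.83 in the thymus, 129, 186 and 97.7 in the liver and 68.5, 1197 and 305 in the spleen. Naip6 ran from 0 reads in 4 libraries to 802 in liver replicate 1. The Naip and Nlrp1 genes have near-identical copies among which reads can be split, so their values are uncertain. Nlrp3, Nlrc4, Nlrp6, Nlrp1a, Naip1 and Mefv were not analysed here.

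Of the pyroptosis output list 5 of 10 genes were tested, with medians of -0.82 and 0.53 in the comparisons with thymus. Gsdmd, the pore-forming gasdermin that caspase-1 and caspase-11 cut, was at 2155, 655 and 1146 in the thymus, 1774, 1001 and 1436 in the liver and 3289, 1035 and 1418 in the spleen. In each tissue its lowest library was the one numbered 2. Panx1, a membrane channel, was at 520 to 1561 in thymus libraries, 339 to 625 in liver libraries and 137 to 598 in spleen libraries. Gsdme, a gasdermin that effector caspases cut, ran from 76.4 to 2134 in the thymus alone. Ninj1, which ruptures the membrane after the pore has formed, had no read in thymus replicates 1 and 2 and in liver replicate 1 and reached 259 in spleen replicate 1. Il18, a cytokine that caspase-1 matures, had no read in any thymus library and was at 34.9 in liver replicate 1 and 79.8 in spleen replicate 1, with at most 0.65 in the other liver and spleen libraries; it was singled out after its values were seen. Il1b was not analysed here.

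**Figure D4:**
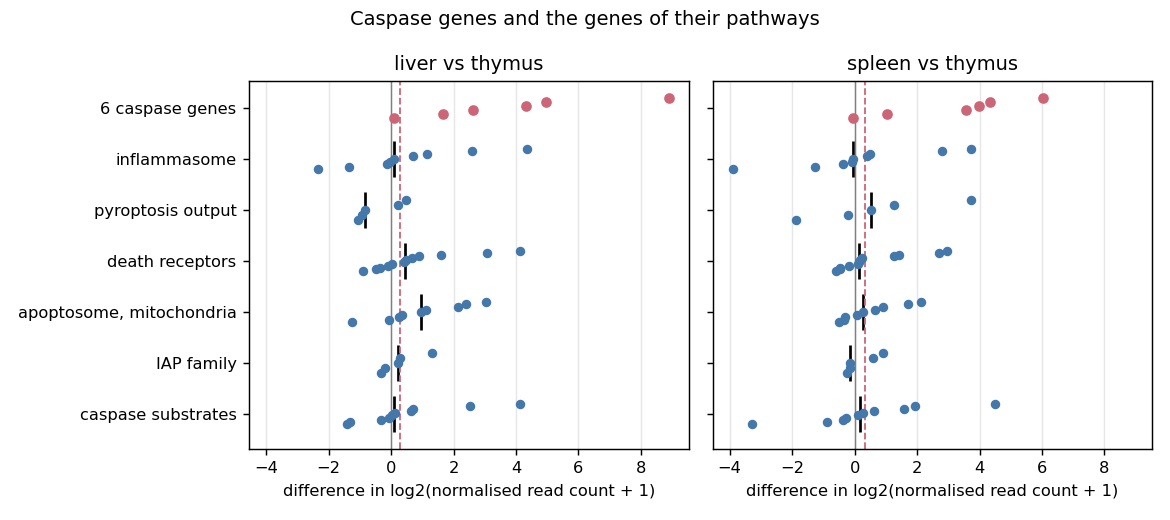
Differences from the thymus in log2(normalised read count + 1) for the 6 caspase genes and for each tested gene of the 6 pathway lists, with the liver on the left and the spleen on the right; black ticks are list medians and the dashed line is the median of all genes tested. The 50 list genes spread to both sides of 0, with medians of 0.24 in the liver and 0.15 in the spleen.

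All 12 death receptor genes were tested, with medians of 0.44 and 0.15 against the thymus. Tnfsf10, which encodes the ligand TRAIL, was at 5370, 4821 and 2321 in the thymus, 10296, 6372 and 5747 in the liver and 4535, 4442 and 4191 in the spleen, so that every liver library lay above all others. Its difference between liver and thymus, 0.88 (SE 0.35), had an adjusted p of 0.349 in limma-trend. Fasl, the ligand of Fas, was at 4270 to 5985 in thymus libraries, 3326 to 4743 in liver libraries and 3249 to 4526 in spleen libraries. Cflar encodes cFLIP, which pairs with caspase-8 and limits it, and its gene ends 36489 bp before Casp8 begins. As for Casp8, its groups overlapped in every comparison, with means of 3490 ± 352, 3621 ± 891 and 4183 ± 668 in thymus, liver and spleen (SD, n = 3 each). Casp8ap2 was at 1006 to 2784, 2677 to 3325 and 991 to 2744 in the same order. Mlkl, the effector of the necroptosis that caspase-8 holds back, had no read in thymus replicates 1 and 2 and was at 56.4 in thymus replicate 3, at 33.03 to 150 in the liver and at 344, 4.75 and 13.7 in the spleen, so that all groups overlapped. Tnfrsf10b, the receptor of TRAIL, and Tradd overlapped between all tissues.

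All 9 apoptosome and mitochondrial genes were tested, with medians of 0.95 and 0.26. Apaf1, the scaffold on which caspase-9 is activated, averaged 1216 ± 682 in thymus, 1309 ± 495 in liver and 967 ± 531 in spleen libraries (SD, n = 3 each). Cycs, the somatic cytochrome c, was at 192 to 823 in thymus libraries, 302 to 544 in liver libraries and 218 to 388 in spleen libraries. The pore former Bak1 was at 642 to 1637, 1222 to 4075 and 1098 to 3452 in the same order, and Bax at 288 to 753, 32.2 to 642 and 144 to 619.5. Diablo, which releases caspases from the IAP proteins, was at 247, 892 and 166 in the thymus, 431, 374 and 479 in the liver and 522, 1600 and 1565 in the spleen. Bid, the substrate that links caspase-8 to mitochondria, had no read in thymus replicate 1 and was at 39.4 and 365 in replicates 2 and 3, at 464, 62.6 and 283 in the liver and at 45.4, 9.56 and 52.1 in the spleen. Its liver libraries lay above all spleen libraries and overlapped with the thymus, and its difference between liver and spleen, 2.78 (SE 2.03), did not pass. Cradd, the adaptor of caspase-2, was at 4832 in thymus replicate 2 and at 20.2 to 642 in the other 8 libraries. Htra2 was at 18.5 to 104 in the thymus and 144 to 434 in the liver, without overlap.

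Of the IAP family 5 of 7 genes were tested, with medians of 0.23 and -0.15. Birc6, a very large ubiquitin ligase, was at 16432 to 27562 in thymus libraries, 16710.0 to 19175 in liver libraries and 18368 to 19127 in spleen libraries. Xiap, which binds caspases directly, was at 1886 to 5706 in thymus libraries, 1606 to 3989 in liver libraries and 2441 to 3507 in spleen libraries. Birc2 and Birc3 overlapped between all tissues, and Birc5, a gene of dividing cells, was at 158 or below in every library.

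All 10 caspase substrate genes were tested, with medians of 0.09 and 0.18. Xkr8, the scramblase that caspases activate to expose phosphatidylserine, had no read in thymus replicate 1, was at 6.97 and 127 in replicates 2 and 3, at 39.1 to 459 in the liver and at 174 to 384 in the spleen. Rock1 and Pak2, kinases that caspase cleavage switches on, were at 7067 to 11369 and 7078 to 14348 over all libraries. Dffb, the nuclease of apoptotic DNA laddering, had no read in thymus replicate 2, where Casp9 also had none. Lmna, the lamin A gene and a substrate of caspase-6, had 0 reads in 5 of 9 libraries, and Acin1 was at 2387 to 5516.

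Genes of other cells also had reads in these libraries. Of 18 myeloid markers 10 were in the table. Their summed value was 4208 to 10398 in thymus libraries, 3720 to 7565 in liver libraries and 1770 to 8537 in spleen libraries, and most of it was Ly6c2 (1321 to 10153), which T cells also express. The macrophage genes Csf1r, Adgre1 and C1qb were at 1297, 405 and 535 in spleen replicate 1, the spleen library with the most Casp1 and Casp9. The B cell genes Ms4a1, Cd79a and Cd79b were at 514 to 625 in that library. In spleen replicate 2, where Casp1 was lowest, Csf1r, Adgre1, C1qb, Ms4a1, Cd79a and Cd79b had no read, and in spleen replicate 3 Csf1r was at 1.12 with Casp1 at 85.7. Others of these lists had reads in spleen replicate 2, with Xcr1 at 490, Cd22 at 65.3 and Cd68 at 32.3. In the thymus Adgre1, C1qb, Ms4a1, Cd79a and Cd79b had no read in any library, but further myeloid and B cell markers did. Cd68 was at 279 and 82.8 in thymus replicates 1 and 3, and Xcr1 at 153 and 179 in replicates 2 and 3. Cd22 and Fcgr3 were at 303 and 81.8 in thymus replicate 2, and Csf1r at 12.6 in replicate 3.

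The liver libraries differed among themselves. In liver replicate 1, where Casp1 was highest, Csf1r, Adgre1 and C1qb had no read, while Cd68 was at 1171, Itgam at 109, Mpeg1 at 55.7, Ms4a1 at 423 and the NK cell genes Ncr1 and Eomes at 616 and 395. In liver replicate 2 Casp1 was at 501 with Csf1r at 3.40, C1qb at 11.1, Ncr1 at 13.7 and no read of Adgre1, Eomes, Ms4a1 or Cd79b. In liver replicate 3, where Casp1 was at 343 and lowest of the liver libraries, Lyz2 was at 404, C1qb at 107, Csf1r at 37.5, Cd79a at 138 and Ncr1 at 131. Lyz2 and Mpeg1 were higher in every liver library than in every thymus library, as Casp1 was, at 18.2, 8.55 and 404 for Lyz2 and 55.7, 0.830 and 42.1 for Mpeg1 in the liver. In the thymus the highest values were 3 reads of Lyz2 in replicate 3 and no read of Mpeg1. The 6 B cell markers in the table, Ighm included, summed to 3157 to 5654 in thymus libraries, 5471 to 8097 in liver libraries and 5326 to 13086 in spleen libraries. The 7 NK cell markers summed to 5007 to 8477, 918 to 4380 and 572 to 2395 in the same order. Most of the thymus sums was Fcer1g, at 3191 to 6967 there and 189 to 1960 in the liver. Klra8, Klri2 and Klrb1b also averaged highest in the thymus. Ncr1 went the other way, with no read in the thymus and 13.7 to 616 in the liver. Tyrobp and Eomes also averaged higher in the liver than in the thymus. The 7 hepatocyte markers in the table summed to 110 to 868, 1419 to 1737 and 0.525 to 40.5 in thymus, liver and spleen libraries. Alb was at 1172 to 1588 in the liver libraries and at 268 and 84.0 in thymus replicates 2 and 3. Trf went the other way, at 110 to 598 in thymus libraries and 7.69 to 43.5 in liver libraries. Of 8 immature thymocyte markers 6 were in the table, and they summed to 134 to 1330, 3553 to 4245 and 4882 to 8831, most of it Ccr9 outside the thymus. The defining gene Rag1 was at 486 in thymus replicate 3 and at no more than 1 read in the others. The 5 erythroid markers in the table summed to 2.45 to 287, 10.2 to 211 and 56.2 to 606. The part of these cells in the levels of the caspase genes was not tested.

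**Figure D5:**
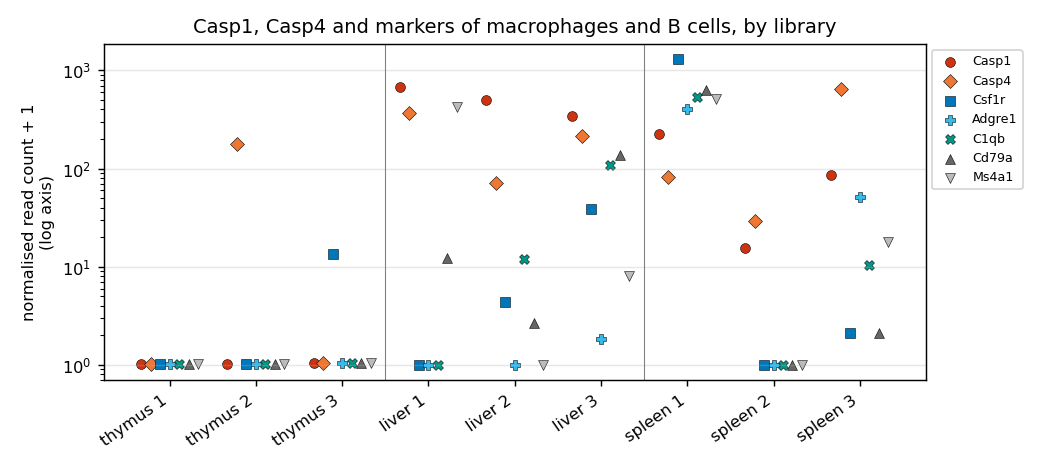
Normalised read counts plus 1 of Casp1, Casp4, 3 macrophage genes (Csf1r, Adgre1, C1qb) and 2 B cell genes (Cd79a, Ms4a1) in each of the 9 libraries, on a log axis. Spleen replicate 1 holds Csf1r at 1297 beside Casp1 at 226, and liver replicate 2 holds Casp1 at 501 beside Csf1r at 3.40.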

How the data were processed

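RNA-seq was done on 9 libraries of iNKT1 cells. RNA came from a micro kit and libraries from an ultralow-input kit, sequenced on a NextSeq500 with 76 cycles, per the labels' protocols. Per the submitters' processing notes, Trimmomatic 0.33, TopHat2 2.1.0, HTSeq 0.6.1, edgeR and mm10 were used; the scaling and the strand setting are not given in the sources used here. The authors' deposited values are a signal, a scaled read count per gene and library, and not whole numbers. In each library low values are multiples of what 1 read is worth, and reads were recovered by rounding: 93.5% of 15737 values of up to 20 reads were whole to within 0.1 reads (72.9% in liver replicate 3, at least 98.2% in the others). Intervals and floors cover counting error only.

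Since these are not counts, the main test was limma-trend (limma 3.58.1, R 4.3.3) on log2(value + 1), two-sided, for the 13309 of 14004 genes that reached a value of 1 in 3 samples or more, with all 9 samples in 1 fit, a term per tissue and Benjamini-Hochberg adjustment over all genes tested. edgeR 4.0.16 (quasi-likelihood) and DESeq2 1.42.0 on recovered reads were alternatives. Nothing says that the libraries came from separate animals, so p-values measure the spread between these samples. One thymus column, replicate 2, has an additional letter in its name that the labels do not explain. Symbols matched 13359 of 14004 identifiers; positions and exon lengths are from GENCODE on GRCm38, the build named in the notes, and promoters from RefSeq. Per list the text names the 4 genes with the highest mean, the 2 with the largest rise and the 2 with the largest fall in liver against thymus among those with a mean of at least 50, any gene past the threshold and any with at most 3 reads in each library of 1 tissue and over 50 on average in another; further genes were named after their values were seen, and some genes of the lists are not reported here. The members and lists were chosen with earlier results of these data known. The limma fit and the recovery of reads were tried on simulated data. For the limma fit the simulated spread was the same for all genes and narrower than that of Casp4 here. The outcome is not reported here and lends no weight to the results.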

Additional observations from a re-analysis of the deposited data

How the results depend on the processing

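With limma-trend 43 genes passed for liver against thymus, 53 for spleen against thymus and 2 for liver against spleen. edgeR gave 17, 32 and 2, and DESeq2 480, 528 and 29. Fits of only the 6 samples compared gave 12, 16 and 6, and array weights gave 18 for liver against spleen. Without the libraries numbered 2, limma-trend gave 12, 19 and 0, the 0 with 339 genes at an unadjusted p under 0.05. Leaving out 1 library gave 8 to 151 genes for liver against thymus, 9 to 140 for spleen against thymus and 0 to 3 for liver against spleen. The most were without thymus replicate 3 (151 and 140). For liver against thymus, leaving out liver replicate 1, 2 or 3 gave 9, 8 and 8, and leaving out spleen replicate 1, 2 or 3 gave 28, 25 and 28. For spleen against thymus, leaving out spleen replicate 1, 2 or 3 gave 14, 11 and 9, and leaving out liver replicate 1 gave 32. For liver against spleen, leaving out liver replicate 1 or 3 gave 0 (319 and 330 at an unadjusted p under 0.05). The cause was not tested. With equal library totals the split of higher and lower calls for spleen against thymus was 22 and 16, against 25 and 28. Deviations of libraries with the same replicate number correlated at -0.0007 to 0.09 over 9 pairs, with a median of 0.04. Over 18 pairs with different numbers they correlated at -0.09 to 0.05, with a median of -0.02. The main fit did not take the numbers as pairs, and whether libraries of the same number share a source was not tested. With a replicate block the counts were 42, 55 and 4, and Casp1 no longer passed. No pathway list gene passed in 22 alternatives except 2 with DESeq2 for spleen against thymus. The balance of inflammatory to apoptotic genes moved by less than 1 SD in the liver and the spleen with recovered reads, without any 1 of their libraries and with only the libraries numbered 1 and 3. Per kilobase of exon, an alternative chosen after seeing the data, its mean log2 moved from -3.81 to -2.85 in the liver, which comes from the lengths of the genes, and from -5.30 to -4.81 in the spleen, less than 1 SD. Liver replicate 3, with 3877694 reads, limits the depth: its floor of 3 reads is 18.1 normalised reads, against at most 3.76 elsewhere.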
